A study of Homo sapiens with 28 samples.

Results

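The regions described here are the 2002 very wide stretches of H3K27ac in untreated EPC2 cells, an immortalised human esophageal epithelial line. H3K27ac is a histone mark of active promoters and enhancers, and a region is a stretch that the authors' peak list gives with a start and an end. A region was taken where its end minus its start was at least 4000 bases, and 49 rows of that list without a q value were left out. They are 2.18% of the 91881 regions of the untreated library, cover 11.3 Mb and hold 13.3% of all listed bases. The other 89879 regions of the list, called narrower here, cover 73.7 Mb. Cells seeded densely in keratinocyte medium received IL-13 (100 ng/ml), vitamin D (100 nM), or the 2 agents together at those doses, or stayed untreated, and treatments lasted 6 h. H3K27ac was profiled in 1 ChIP-seq library for each of these 4 groups, STAT6 with IL-13 and untreated, and VDR with vitamin D and untreated, again in 1 library each. H3K4me3 and H3K9ac were used here in the untreated cells. RNA was sequenced in 3 samples per group, and the tables hold 1 RPKM value (reads scaled by transcript length and by mapped reads) per group, so no spread between samples can be given. In such bulk RNA, fewer cells of a type and less RNA per cell cannot be told apart. The labels do not say whether the 3 samples were separate cultures. The labels call the agent vitamin D without naming its form.

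Acetylation of histone H3 at this lysine is laid down by coactivators that transcription factors recruit. Long continuous stretches of the mark are known from many cell types to lie over genes that define the cell, where several promoters and enhancers stand side by side. In stratified squamous epithelium such genes include the keratins, the integrins and laminins that fix basal cells to their basement membrane, and factors such as p63. IL-13 is a type 2 cytokine that acts through the receptor subunit IL4R and the transcription factor STAT6. VDR, the nuclear receptor for vitamin D, binds DNA together with RXR.

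The untreated H3K27ac library stands apart from the 3 treated ones in depth, and this touches every comparison of H3K27ac below. Its background level, computed back from pileup and fold enrichment, was the highest of the 4: 0.512 fragments with IL-13, 0.731 with vitamin D, 0.565 in the combination and 1.40 in untreated cells. The treated libraries list 69707, 67183 and 72629 regions, and 571, 891 and 715 of these reach 4000 bases. Fewer and shorter regions in treated cells and a shallower library cannot be told apart. The levels of cell type markers fit the labelled tissue: 9 of 10 markers of squamous epithelium reached 1 RPKM in every group, their summed level ran from 32552 to 37619.9 RPKM, and 9 of them had a wide region. The 7 fibroblast markers summed to 10.2, 9.83, 6.04 and 15.4 RPKM with IL-13, vitamin D, both and neither, nearly all of it COL1A1, and the 6 leukocyte markers to 48.1, 60.6, 56.6 and 50.8 RPKM, nearly all of it CD68. The 5 endothelial markers stayed under 0.1 RPKM in sum, and no marker of these other cell types had a wide region.

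Wide regions often run across gene starts, so 6 promoters that they span are shown, from 250 bases before to 50 bases after the start site, as RefSeq gives them on GRCh38.p14. They were chosen because the genes carry the results below: MAP3K14, TNC and ALCAM are among the largest rises with IL-13, IVL and GLTP are among its largest falls, and IL4R encodes the shared receptor subunit. They lie at chr17:45316971-45317270 (MAP3K14, minus strand), chr9:115118108-115118407 (TNC, minus), chr16:27313724-27314023 (IL4R, plus), chr3:105366659-105366958 (ALCAM, plus), chr1:152908296-152908595 (IVL, plus) and chr12:109880492-109880791 (GLTP, minus). The peak lists are on hg19, so the RefSeq start need not be the start the authors listed. Each is given 5′ to 3′ on the gene's strand, and capitals mark a TATA box or a VDR half-site.
MAP3K14: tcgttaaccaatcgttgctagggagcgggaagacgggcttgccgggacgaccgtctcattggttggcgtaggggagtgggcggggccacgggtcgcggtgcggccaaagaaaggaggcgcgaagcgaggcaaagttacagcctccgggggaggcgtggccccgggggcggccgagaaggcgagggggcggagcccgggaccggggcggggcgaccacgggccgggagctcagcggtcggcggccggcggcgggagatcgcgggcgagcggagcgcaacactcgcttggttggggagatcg
TNC: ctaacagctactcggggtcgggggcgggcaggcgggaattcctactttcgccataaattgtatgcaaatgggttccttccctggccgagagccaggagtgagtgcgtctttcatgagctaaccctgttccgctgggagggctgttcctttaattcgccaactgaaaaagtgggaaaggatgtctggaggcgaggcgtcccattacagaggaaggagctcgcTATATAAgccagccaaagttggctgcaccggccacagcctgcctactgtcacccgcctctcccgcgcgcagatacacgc
IL4R: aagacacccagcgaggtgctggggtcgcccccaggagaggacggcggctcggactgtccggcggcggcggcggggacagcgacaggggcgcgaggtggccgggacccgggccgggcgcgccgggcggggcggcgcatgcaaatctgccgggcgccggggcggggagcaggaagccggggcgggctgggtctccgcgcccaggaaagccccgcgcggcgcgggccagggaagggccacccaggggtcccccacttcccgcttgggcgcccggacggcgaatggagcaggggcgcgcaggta
ALCAM: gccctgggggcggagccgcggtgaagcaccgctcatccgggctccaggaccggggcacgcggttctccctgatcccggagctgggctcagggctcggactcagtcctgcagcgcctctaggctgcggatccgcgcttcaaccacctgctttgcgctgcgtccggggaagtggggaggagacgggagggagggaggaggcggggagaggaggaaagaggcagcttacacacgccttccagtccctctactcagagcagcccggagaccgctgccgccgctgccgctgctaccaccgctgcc
IVL: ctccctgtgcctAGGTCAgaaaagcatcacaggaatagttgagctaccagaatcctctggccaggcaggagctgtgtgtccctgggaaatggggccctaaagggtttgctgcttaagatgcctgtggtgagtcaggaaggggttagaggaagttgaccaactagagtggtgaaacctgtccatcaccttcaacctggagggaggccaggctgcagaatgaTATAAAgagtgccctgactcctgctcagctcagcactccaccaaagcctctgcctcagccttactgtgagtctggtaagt
GLTP: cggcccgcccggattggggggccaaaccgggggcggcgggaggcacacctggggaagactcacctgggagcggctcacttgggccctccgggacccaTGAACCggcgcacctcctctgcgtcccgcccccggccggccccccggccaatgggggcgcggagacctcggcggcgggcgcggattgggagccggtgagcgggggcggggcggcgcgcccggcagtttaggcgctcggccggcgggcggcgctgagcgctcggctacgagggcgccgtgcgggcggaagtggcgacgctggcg
The searched letters were TTCNNNNGAA for STAT6, and for a single VDR half-site AGGTCA and GGGTCA and also AGTTCA and GGTTCA, all on both strands. The TATA box was TATAAA or else TATATAA on the gene's strand. STAT6 matches may overlap half-sites. The STAT6 letters are in none of the 6 windows and in 6.44% of all 35116 promoters of the table. A VDR half-site starts 238 bases before the start of IVL and 153 bases before that of GLTP, and 38.6% of all promoters hold at least 1. TNC and IVL have a TATA box that begins 29 and 30 bases before the start, as do 8.29% of all promoters at any place in the window. The 6 windows fall into 2 kinds by base composition: IVL had 53.3% G or C and 0 CG pairs and TNC 57.3% and 18, while MAP3K14, ALCAM, IL4R and GLTP had 70.0% to 79.3% and 26 to 45 CG pairs.

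The same composition was read over every gene with 1 entry in the promoter table. The 474 genes whose start lies in a wide region had a median of 69.3% G or C (quartiles 61.7% and 75.6%), against 65.7% for 5796 genes whose start lies in a narrower region and 62.7% for all 10678 genes. A TATA box was in 5.91% of the promoters inside wide regions, 3.61% of those inside narrower regions and 8.68% of all. A VDR half-site was in 22.6%, 32.0% and 35.4% of these promoters in the same order. The part of base composition in these motif shares was not tested.

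The wide regions had a median width of 4999.5 bases, with quartiles of 4413 and 6133 bases, and 79 of them reached 10000 bases. The 3 regions at the edge of the rule were those of S1PR5, LAMA5 and KREMEN1 at 4000 bases each, and just outside it lay those of ATXN1 and ZNF782 at 3999 and LDB1 at 3998. By the authors' annotation, 993 wide regions (49.6%) were at promoters, 357 between genes, 327 in introns, 185 in exons and 140 upstream of genes. Narrower regions were at promoters in 14.9%, in introns in 38.0% and between genes in 30.1%. A listed start site lay inside 973 wide regions.

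Other active marks, which the width rule did not use, overlapped most wide regions. H3K4me3, the mark of active promoters, overlapped 1232 wide regions (61.5%), against 18.3% of narrower ones. H3K9ac, another acetylation of active chromatin, overlapped 1993 wide regions (99.6%), against 25.8%. A long region overlaps another list more often by its length alone, so counts per Mb of listed bases were also taken. By that measure H3K9ac regions stood at 795 in wide and 532 in narrower regions, and H3K4me3 regions at 167 in wide and 233 in narrower regions. The pooled values mix positions. At promoters alone wide regions held fewer regions of both marks per Mb, with 807 H3K9ac regions against 895 and 256 H3K4me3 regions against 557, and between genes they held more H3K9ac, with 779 against 380, and fewer H3K4me3, with 61.8 against 95.1. Of the 993 promoter regions 36 had no H3K4me3, and 275 regions outside the promoter class had some.

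**Figure D1:**
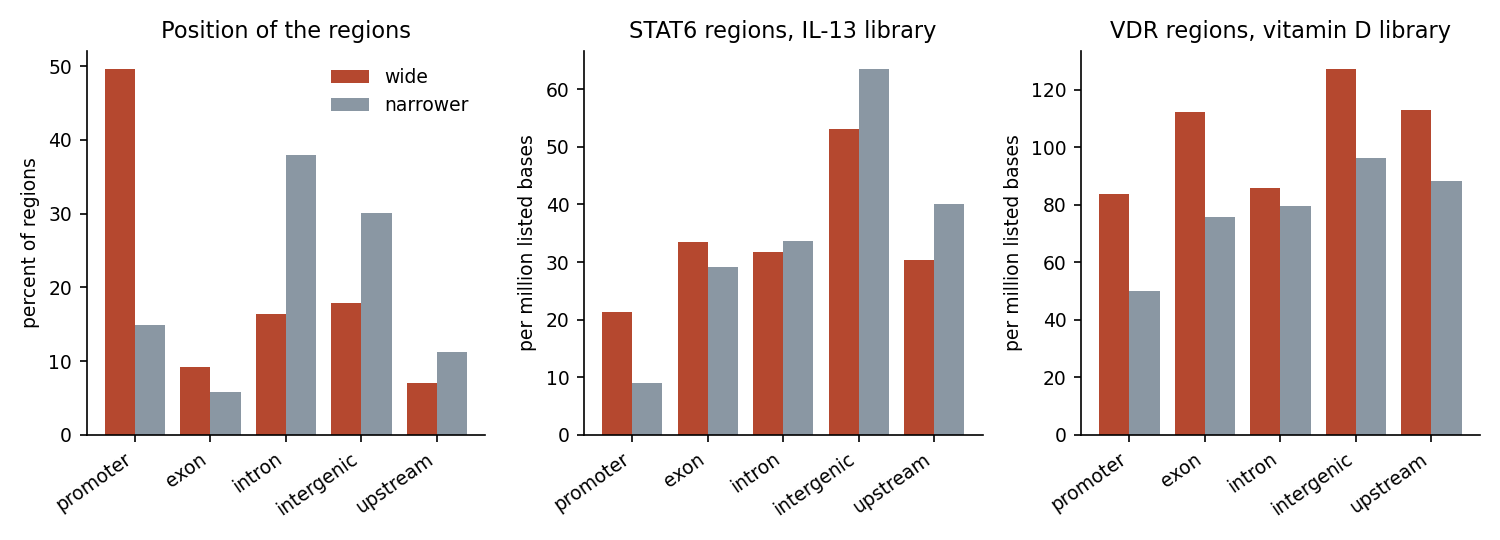
Percent of regions at each annotated position (left), STAT6 regions of the IL-13 library (middle) and VDR regions of the vitamin D library (right) per Mb of listed bases, for wide (red) and narrower (grey) untreated H3K27ac regions. Promoters make up 49.6% of wide and 14.9% of narrower regions, and STAT6 is denser in wide than in narrower regions at promoters but not between genes.

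The 20 widest regions include those of several adhesion, cytoskeleton and keratin genes. The widest, of 23906 bases with 70 summits, spans the start of BCL9L, a coactivator of beta-catenin (chr11:118777783-118801689, hg19, as are all coordinates from the peak lists). The next, of 23726 bases, lies in an intron of PVRL1, which encodes the adhesion molecule nectin-1 (chr11:119550779-119574505), and has no H3K4me3 region. Those of the cell surface proteoglycan gene SDC1 (21525 bases, chr2:20404861-20426386), of EIF1 and KRT42P (20631 bases), of the focal adhesion gene TNS4 (20617 bases, chr17:38637982-38658599) and of the MAP kinase phosphatase gene DUSP7 (20002 bases) follow. The list goes on with the epithelial transcription factor gene TFAP2A, the nuclear lamin gene LMNA, the integrin gene ITGA3, the keratin genes KRT80 and KRT78, the 14-3-3 gene SFN, the parathyroid hormone-related gene PTHLH and IL4R (15001 bases, chr16:27324495-27339496). The region of TNS4 runs from its promoter into the gene and holds 5 H3K4me3 regions, and that of SFN holds 3. The region of AIG1 covers an exon 262635 bases from the listed start, and that assigned to MTAP lies between genes, 112403 bases away.

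Genes could also carry several wide regions. The authors' assignment gave 1876 symbols to wide regions, 1544 of them with 1, 233 with 2 and 99 with 3 or more, and 250 regions carried more than 1 symbol. MIR205HG, the host gene of an epithelial microRNA, and ITGA6, the integrin of hemidesmosomes, had 7 each. The amino acid transporter gene SLC7A5 and the activin antagonist gene FST had 6 each, and the non-muscle myosin gene MYH9, the RNA-binding protein gene ZFP36L1 and CREB1 had 5 each. These genes were picked after their counts were seen. Chromosome 17, with the type I keratins, TNS4 and ITGA3, carried 135 of the 2002 wide regions. Its share of all listed regions is not given, so no excess can be read from this count.

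Genes of wide regions were transcribed at higher levels than other genes. Of 1860 such genes in the RNA tables (7.91% of 23529), the median untreated level was 11.9 RPKM with quartiles of 2.47 and 33.9. Genes with narrower regions only had a median of 2.89 RPKM, and genes in no region a median of 0. At least 10 RPKM was reached by 54.4% of the genes of wide regions and by 26.9% of those with narrower regions only. They held 184 of the 469 genes at 100 RPKM or more and 38.5% of the summed RPKM. Their median stood at 11.7 RPKM with IL-13, 12.04 under vitamin D and 11.8 in the combination. In untreated cells 64 of these genes were listed at 0 RPKM.

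Levels followed width. Median untreated levels were 9.55 RPKM where the widest region of a gene had 4000 to under 5000 bases, 13.1 at 5000 to under 7000 bases, 19.2 at 7000 to under 10000 bases and 36.3 at 10000 bases or more. The pattern also held for promoter regions alone, with 16.0 RPKM in 1235 genes with a wide one and 5.61 RPKM in 12079 genes with narrower ones. The 625 genes that had a wide region only elsewhere had a median of 6.42 RPKM.

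**Figure D2:**
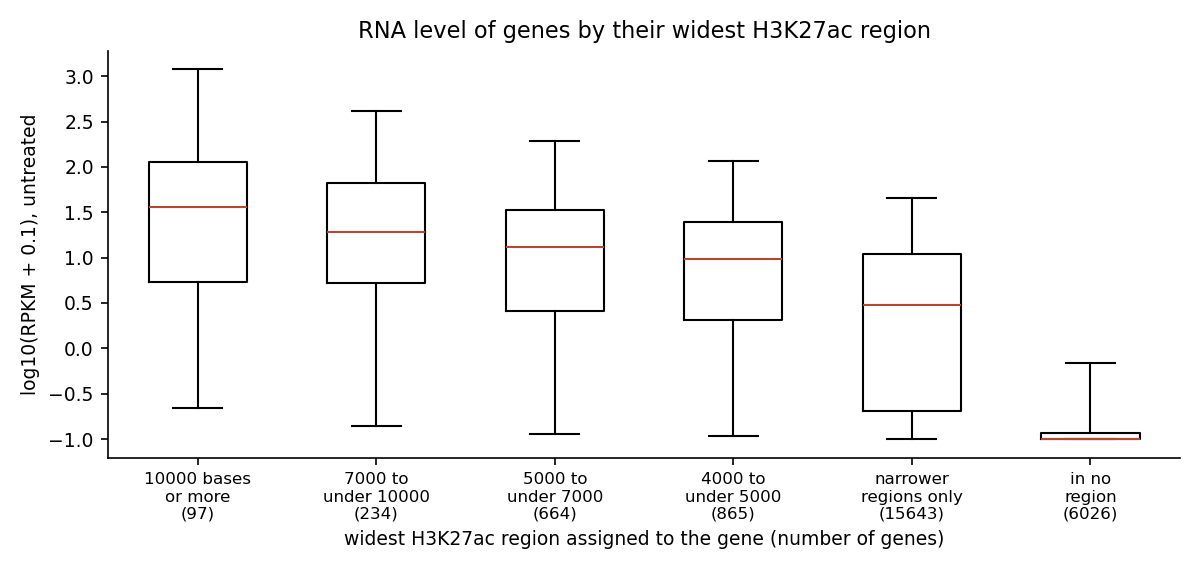
Untreated RNA level, as log10(RPKM + 0.1), of genes grouped by the widest H3K27ac region assigned to them, with the number of genes under each box. The line is the median, the box the quartiles and the whiskers the 5th and 95th percentiles; the median is 36.3 RPKM in the widest group and 2.89 RPKM in genes with narrower regions only.

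Of 9 gene lists, those of basal cells and of squamous transcription factors had the largest shares of their members in wide regions. Among basal keratinocyte genes 21 of 25 measured had a wide region (84.0%), against 7.91% of all genes. Of all genes at 100 RPKM or more in untreated cells 184 of 469 had one, and the part of level in the list shares was not tested. They included the keratin genes KRT5 (10061 bases, 10444 RPKM untreated), KRT14 (11599 bases, 7429.9 RPKM), KRT15, KRT17 and KRT6A; the integrin genes ITGA3, ITGA6, ITGB1 and ITGB4; the laminin genes LAMA3 and LAMB3; the collagens COL7A1 and COL17A1; and CD44, PLEC, CAV1, CDH3, S100A2, SERPINB5 and SFN. KRT16 and KRT6B, at 6913 and 2327 RPKM in untreated cells, had narrower regions only, so a high level did not require a wide region. KRT6A and KRT6B are near-identical copies, and KRT14, KRT16 and KRT17 are related paralogs, so reads may be split between them. Among squamous transcription factors 20 of 30 had one (66.7%), with TFAP2A (17862 bases), GRHL3 (9074), EHF (8360), KLF5 (7927), ZNF750 (7121) and TP63 (5757, in an intron 206133 bases from the listed start). SOX2, OVOL1, ELF3 and GATA3 were among the 10 with narrower regions only.

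Several other groups were well represented. Of genes of TGF-beta, matrix and cytoskeleton 18 of 31 had a wide region, among them MYH9, LMNA, TNS4, the actin genes ACTB and ACTG1, and TGFBI. Of AP-1 and immediate early factors 12 of 23 had one, JUNB with 13258 bases and KLF6 with 12064. FOS and FOSB had wide regions at 1.24 and 0.111 RPKM in untreated cells. Of the EGF receptor family and its feedback genes 12 of 25 had one, among them EGFR, the ligands AREG, HBEGF and TGFA, and the phosphatases DUSP4, DUSP5 and DUSP6. The differentiation list had 10 of 35, most of them desmosome genes (DSP, DSG1, DSG3, DSC2, PKP1, PKP3, JUP), with IVL, KRT13 and TGM1. The envelope genes SPRR1B and SPRR3, at 2577 and 1107 RPKM untreated, had narrower regions only.

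The lists of genes that IL-13 and vitamin D are known to act on had smaller shares in wide regions than most lists above. The shares were 27.6% for vitamin D and 12.5% for IL-13, against 7.91% of all genes. That base includes many genes that are barely transcribed. Of genes at 1 RPKM or more in untreated cells, 1515 of 11248 had a wide region. Of the IL-13 receptor, JAK-STAT and response list 3 of 24 had one: IL4R, the phosphatase gene PTPN1 and the plakophilin gene PKP2. IL13RA1, JAK1, STAT6 and SOCS1 had narrower regions only. Of the vitamin D list 8 of 29 had one, among them CYP24A1, RXRA, HBEGF, THBD, NFKBIA, TXNRD1 and CEBPB, and VDR itself had narrower regions only. Of the NF-kappaB and cytokine list 4 of 23 had one, namely IL1A, IL1B, IL1RN and CXCL2. These shares are descriptions of chosen lists, and no test was run on them.

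STAT6 with IL-13 lay in 287 wide regions (14.3%), against 2.72% of narrower regions. In untreated cells STAT6 lay in 3 wide regions (0.150%), against 0.643% of narrower regions. The STAT6 library with IL-13 had a background of 3.05 fragments and the untreated one 1.46. The part of depth in the contrast between these 2 libraries was not tested. Per Mb the order with IL-13 turned: 30.2 STAT6 regions in wide and 34.5 in narrower regions. At promoters STAT6 was denser in wide regions, with 21.3 per Mb against 8.95, and between genes it was less dense, with 53.0 against 63.5. VDR with vitamin D lay in 785 wide regions (39.2%), against 5.90% of narrower regions. Untreated VDR lay in 198 (9.89%), against 1.20% of narrower regions, and per Mb it stood at 21.3 against 15.2. Per Mb VDR with vitamin D stood at 96.2 in wide and 75.8 in narrower regions. At promoters it stood at 83.8 against 49.95, and between genes at 127 against 96.1. VDR was thus denser in wide regions at both positions, and STAT6 at promoters but not between genes. With factor regions of a -log10 q of at least 20 alone, the shares of wide regions were 2.60% for STAT6 and 11.0% for VDR. Both factors shared 142 wide regions, STAT6 alone lay in 145, VDR alone in 643 and neither in 1072.

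The wide regions of the treated libraries fell almost entirely on those of untreated cells. Of the 571 regions of at least 4000 bases with IL-13, 556 overlapped a wide untreated region, as did 869 of 891 with vitamin D and 683 of 715 with both. The remaining 15, 22 and 32 regions all overlapped narrower untreated regions. Of the 15 with IL-13, 9 held STAT6 and 2 held VDR, among them those of the oxidase gene DUOX1 (5010 bases, widest untreated stretch 3277) and MAPKAPK3. Of the 22 with vitamin D, 0 held STAT6 and 19 held VDR, among them those of NFKBIA, SERPINB1, EGFR and a stretch assigned to CYP24A1 (7337 bases, widest untreated stretch 3623). Of the 32 with both agents, 14 held STAT6 and 16 held VDR. Regions wide with 1 agent but not untreated thus mostly held the factor of that agent, in libraries shallower than the untreated one. With both agents most of the 32 held at least 1 of the factors. Neither STAT6 nor VDR by itself lay in most of them. Of the untreated wide regions 14.3% held STAT6 and 39.2% held VDR.

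Looked at from the untreated side, every wide region overlapped some listed region in each treated library. Of their bases, 80.1% were listed under IL-13, 86.0% under vitamin D and 82.5% under the combination, against 51.0%, 57.6% and 54.1% of the bases of narrower regions. A stretch of at least 4000 bases remained over 544 wide regions under IL-13, 846 under vitamin D and 668 under the combination. A single piece was left in 361, 621 and 423. The order of the libraries is that of their background levels, so depth and treatment cannot be told apart here. Few regions were lost in large part. The least listed with IL-13 was that of LINC00592 in the keratin cluster of chromosome 12, with 6.59% of its bases (83.0% with vitamin D and 31.4% with both). For the region of the kinase gene PIM3 these shares were 17.3% with IL-13, 36.7% under vitamin D and 5.38% in the combination.

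**Figure D3:**
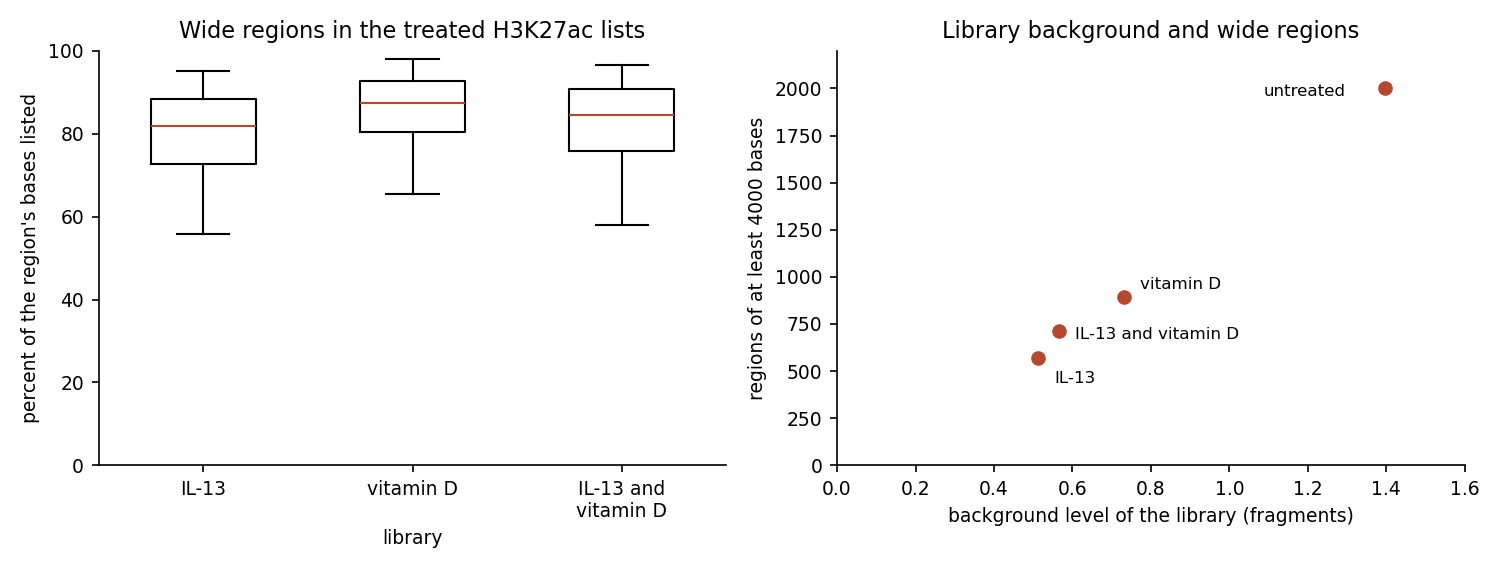
Left, percent of each wide region's bases listed in the 3 treated H3K27ac libraries (line, median; box, quartiles; whiskers, 5th and 95th percentiles). Right, number of regions of at least 4000 bases against the background level of each H3K27ac library, where the untreated library has both the highest background (1.40) and the most wide regions (2002).

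Heights were compared after dividing the tallest summit in a wide region by the library's background and centring the log2 ratio to untreated on the median wide region. Before centring, that median was 0.21 for IL-13, 0.18 for vitamin D and 0.18 for the combination. With IL-13, wide regions that held STAT6 had a median of 0.086 and those without it -0.016. In the vitamin D library the same 2 sets had medians of 0.0064 and -0.0041. With vitamin D, wide regions that held VDR had a median of 0.061 and those without it -0.039, and in the IL-13 library 0.0031 and -0.0043. With both agents the medians were 0.091 and -0.016 by STAT6 and 0.044 and -0.040 by VDR. The shifts therefore stood in the libraries that received the factor's own agent, and each is small beside the spread of single regions, whose quartiles with IL-13 were -0.19 and 0.16. With the mean of all summits in place of the tallest, the IL-13 medians by STAT6 were 0.065 and -0.0090 and the vitamin D medians by VDR 0.051 and -0.035. There is 1 library per condition, so no test of these shifts was possible.

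The ends of the range of relative heights were read for their genes. With IL-13 the region of MAP3K14, which encodes the NF-kappaB-inducing kinase, was 0.99 above the median wide region on the log2 scale (tallest summit 32 fragments with IL-13, 27 with vitamin D, 33 with both and 38 untreated). Those of SNX13 and of the peptidase gene DPP4 followed at 0.78 and 0.74. With vitamin D the second region of CYP24A1 (chr20:52747829-52752121) was highest at 0.98, with summits of 15, 41, 33 and 35 fragments in the same order of groups. It was also highest with both agents, at 1.04. The lowest with vitamin D was an intergenic region assigned to PTPRZ1 at -0.89, and with IL-13 those of NTM and ROBO4 at -0.94 each. With the mean of all summits these stood at -0.61 for PTPRZ1, -0.18 for NTM and -0.30 for ROBO4, while MAP3K14 stood at 1.00, SNX13 at 0.61, DPP4 at 0.59 and CYP24A1 at 0.87 with vitamin D. These are the extremes of 2002 values, given as a description.

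In RNA, more genes of wide regions fell than rose with IL-13, mostly by less than 2-fold. Of 1696 tested genes in the authors' deposited table, 255 were higher (15.0%) and 572 lower (33.7%) at an adjusted p under 0.05, against 12.3% higher and 14.0% lower over all genes tested. With vitamin D, the authors' deposited table had 579 of 1700 higher (34.1%) and 374 lower (22.0%), against 17.5% and 15.1% over all genes. With both agents, the authors' deposited table had 400 of 1731 higher (23.1%) and 545 lower (31.5%), against 16.0% and 15.7%. Most of these changes were small: the median log2 change was -0.066 for IL-13, 0.033 for vitamin D and -0.040 for the combination, against 0.0027, -0.0031 and -0.00043 over all genes. Changes of at least 2-fold, in the authors' deposited tables, numbered 24 for IL-13 (1.42%), 45 for vitamin D (2.65%) and 66 for the combination (3.81%), against 1.19%, 1.70% and 3.27% of all genes tested, close to the background shares with IL-13 and with both. Among these larger changes the leading direction with IL-13 and with both was the opposite one: 15 were higher and 9 lower with IL-13 in the authors' deposited tables, 37 and 8 with vitamin D, and 36 and 30 with both, against 122 and 59, 189 and 69, and 292 and 231 over all genes. The 3 comparisons share the untreated samples.

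A test passes more easily in an abundant gene, so genes of at least 10 RPKM in untreated cells were also counted alone. Of 1011 such genes of wide regions, 17.1% were higher and 42.0% lower with IL-13 in the authors' deposited table, against 16.1% and 16.8% of 4206 genes with narrower regions only. With vitamin D these shares were 41.9% higher and 26.4% lower for wide regions, against 24.8% and 16.0%. With both they were 25.9% and 38.1%, against 20.2% and 17.7%. The excess of falls with IL-13 was thus there among abundant genes too, while with vitamin D both rises and falls were in excess. Their median level still differed, 29.8 RPKM with a wide region and 20.7 RPKM with narrower ones, and its part in the shares was not tested.

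**Figure D4:**
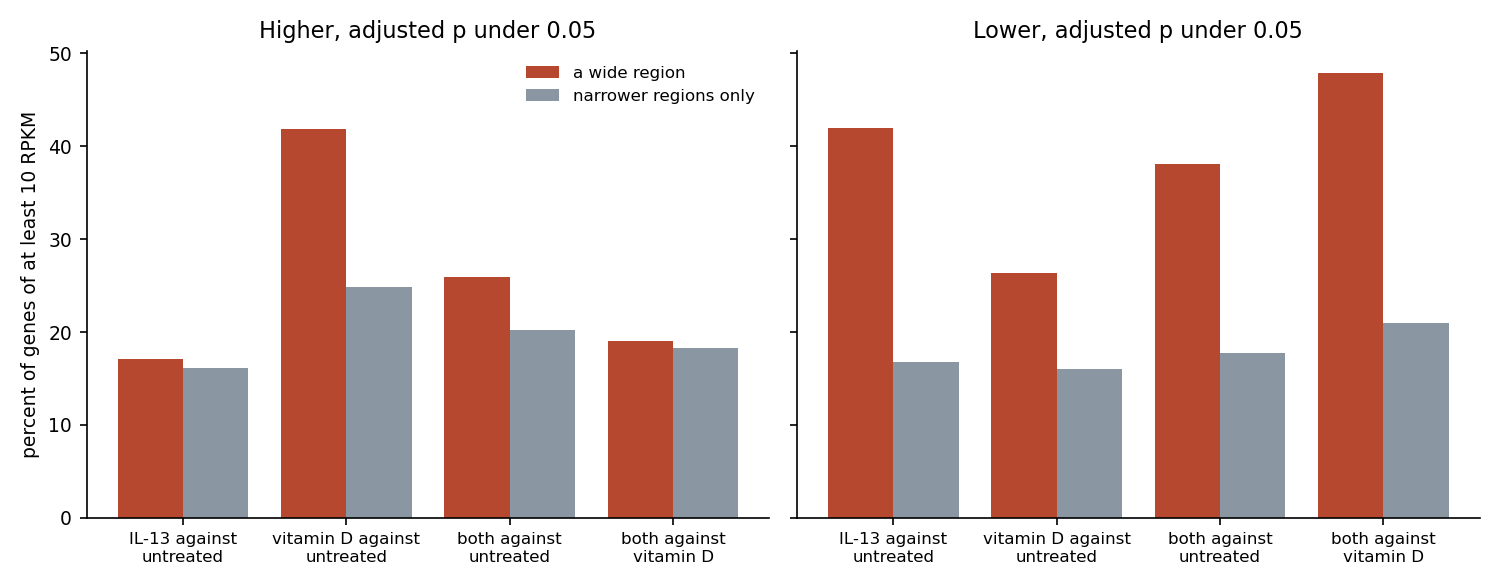
Percent of genes of at least 10 RPKM in untreated cells that were higher (left) or lower (right) at an adjusted p under 0.05 in the authors' deposited tables, for genes with a wide region (red, 1011 genes) and with narrower regions only (grey, 4206 genes). Falls with IL-13 stand at 42.0% with a wide region and 16.8% without one.

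The shares changed with width. With IL-13 the share of lower genes was 28.2% where the widest region had 4000 to under 5000 bases, 35.4% at 5000 to under 7000, 40.1% at 7000 to under 10000 and 54.3% at 10000 or more (92 genes), while 7.61% of the widest group were higher. With vitamin D the share of higher genes was 30.1%, 36.9%, 33.2% and 51.1% in the same order. The untreated median of the tested genes also went up with width, through 11.1, 15.7, 24.5 and 40.5 RPKM.

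A second comparison with IL-13 shares no sample with the first: both agents against vitamin D alone. There the authors' deposited table had 286 of 1682 genes of wide regions higher and 645 lower (38.3%), against 16.4% higher and 16.9% lower of all genes. Of 1677 genes tested in both comparisons, 501 were lower in both (29.9%), against 11.2% of all genes, and 201 higher in both (11.99%), against 9.28%. Opposite calls were made for 3 of the 1677, against 10 of all 14769 genes tested in both (0.0677%). The 501 genes are 87.7% of those that fell with IL-13 alone and 77.7% of those that fell when IL-13 was added to vitamin D. Over all genes these shares were 78.2% and 66.2%, so most falls were repeated there too.

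The genes with the largest rises with IL-13 in wide regions code for matrix, surface and signalling proteins. The matrix glycoprotein gene TNC had 160 RPKM with IL-13, 19.0 with vitamin D, 153 with both and 20.8 untreated, a log2 change of 2.90 with IL-13 in the authors' deposited table (adjusted p listed as 0). MAP3K14 had 7.64, 1.83, 9.71 and 1.78 RPKM in the same groups, up by 2.004 with IL-13 (adjusted p = 3.35e-162, the authors' deposited table). DPP4 had 36.0, 10.4, 29.2 and 11.1 RPKM, up by 1.65 (adjusted p = 3.31e-260, the authors' deposited table). All 3 were high in both groups with IL-13 and low in the 2 groups without it. The single-strand DNA binding protein gene NABP1 rose by 1.54, the steroid synthesis enzyme gene CYP11A1 by 1.28, the adhesion gene ALCAM by 1.24, the calcium sensor gene VSNL1 by 1.20 and the cation exchanger gene SLC24A3 by 1.16 in the authors' deposited table. CYP11A1 stayed under 1 RPKM in every group, so the size of its change is uncertain.

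The largest falls with IL-13 included genes of the upper epithelial layers. Involucrin, IVL, a precursor of the cornified envelope, had 12.7 RPKM with IL-13, 92.6 with vitamin D, 21.5 with both and 50.3 untreated, a change of -1.96 with IL-13 in the authors' deposited table (adjusted p = 1.17e-259). The citrullinating enzyme gene PADI1 had 9.41, 45.0, 12.8 and 26.7 RPKM and changed by -1.50 (adjusted p = 9.32e-255, the authors' deposited table). The glycolipid transfer protein gene GLTP had 105 RPKM with IL-13, 387 with vitamin D, 189 with both and 244 untreated, with changes of -1.22 and 0.72 with IL-13 and vitamin D in the authors' deposited table. IVL, PADI1 and GLTP were lowest with IL-13 and highest with vitamin D. The suprabasal keratin gene KRT13 changed by -1.06, the growth factor binding protein gene FGFBP1 by -1.16, the metallothionein gene MT2A by -1.28, the exchange factor gene RAPGEF3 by -1.51 and the transporter gene SLC10A6 by -1.09 with IL-13 in the authors' deposited table. RAPGEF3 stayed under 1 RPKM in every group.

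Vitamin D gave the largest change of any gene of a wide region. CYP24A1, the enzyme that degrades vitamin D, had 0.281 RPKM with IL-13, 560 with vitamin D, 463 with both and 0.476 untreated, a log2 change of 9.92 with vitamin D in the authors' deposited table (adjusted p listed as 0). Its 2 wide regions in untreated cells therefore lay near a gene that was close to silent there. The first lies 48560 bases from the listed start (chr20:52737629-52741956) and holds a VDR region with a -log10 q, as the authors' peak caller gives it, of 448 with vitamin D and 259 untreated, and the second lies 38395 bases away with one of 23.6 with vitamin D alone. FOS, an AP-1 subunit, had 0.913, 13.8, 7.04 and 1.24 RPKM and rose by 3.39 with vitamin D (the authors' deposited table, adjusted p listed as 0). Its wide region lies 20687 bases upstream (chr14:75718085-75724794) and holds a VDR region with a -log10 q of 368 with vitamin D and 169.8 untreated. In the authors' deposited table the surface glycoprotein gene PDPN rose by 1.84, the exchange factor gene NET1 by 1.75, HRCT1 by 1.56, SH3TC1 by 1.56 and the nucleotide receptor gene P2RY2 by 1.44. HRCT1 stayed under 1 RPKM.

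The largest falls with vitamin D included a transcription factor and a desmosomal cadherin. The factor SOX6 had 0.886 RPKM with IL-13, 0.111 with vitamin D, 0.139 with both and 0.810 untreated, a change of -2.52 with vitamin D in the authors' deposited table (adjusted p = 3.2e-77). The cadherin gene DSG1 had 8.34, 3.68, 2.98 and 16.4 RPKM and changed by -2.08 (adjusted p listed as 0, the authors' deposited table). SERPINB13, which codes for a protease inhibitor, stood at 132, 20.7, 55.5 and 62.2 RPKM, highest with IL-13 and lowest with vitamin D, with changes of 1.05 and -1.52 in the authors' deposited table. The phosphatase gene PTPRZ1, whose region also had the lowest relative height with vitamin D, changed by -1.80, the Wnt ligand gene WNT10A by -1.49, CNTNAP2 by -1.25, the lipase gene ABHD6 by -1.03 and the kinase gene SGK1 by -1.01 in the authors' deposited table.

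With both agents the 2 responses stood side by side. CYP24A1 changed by 9.69, TNC by 2.87, FOS by 2.41, MAP3K14 by 2.41, CYP11A1 by 1.99, PDPN by 1.83 and ASB1 by 1.76 in the authors' deposited table. ASB1, a gene with a SOCS box, had 11.0 RPKM with IL-13, 9.72 with vitamin D, 17.6 with both and 5.18 untreated. The largest falls were DSG1 at -2.43, SOX6 at -2.37, WNT10A at -1.93, FGFBP1 at -1.81, the protocadherin gene PCDHGC5 at -1.62, the envelope cross-linking enzyme gene TGM1 at -1.61, PTPRZ1 at -1.58 and SLC47A2 at -1.43 in the authors' deposited table. FGFBP1 had 101, 171, 63.4 and 224 RPKM, TGM1 132, 192, 84.5 and 262 RPKM, and both were lowest with both agents and highest in untreated cells.

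By gene list, most differentiation genes of wide regions fell with IL-13, and most cytoskeleton genes rose with vitamin D. The counts below stand beside 15.0% higher and 33.7% lower of all genes of wide regions with IL-13, 34.1% and 22.0% with vitamin D, and 23.1% and 31.5% with both, and beside 12.3% and 14.0%, 17.5% and 15.1%, and 16.0% and 15.7% of all genes. No test was run of any list against these shares. In the authors' deposited tables, 1 of 10 differentiation genes was higher and 8 lower with IL-13, 2 and 6 with vitamin D, and 0 and 10 with both, with medians of -0.23, -0.25 and -0.61 on the log2 scale. Over the whole list the counts were 2 and 29 of 34, 8 and 17 of 34, and 4 and 30 of 35. Of 18 genes of TGF-beta, matrix and cytoskeleton, 3 were higher and 8 lower with IL-13, 15 and 2 with vitamin D, and 12 and 3 with both in the authors' deposited tables, with medians of -0.066, 0.27 and 0.22. Over the whole list of 31 they were 5 and 13, 22 and 6, and 18 and 7. The tropomyosin gene TPM4 had 336 RPKM with IL-13, 825 with vitamin D, 635 with both and 397 untreated, the actin gene ACTG1 943, 1499, 1324 and 1001 RPKM, and both were highest with vitamin D. SMAD3, a TGF-beta signal transducer, had 6.12, 11.5, 5.26 and 10.9 RPKM and was low in both groups with IL-13.

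Squamous transcription factor genes of wide regions were mostly lower with vitamin D. Of 20, the authors' deposited tables had 6 higher and 10 lower with IL-13, 3 and 15 with vitamin D, and 4 and 13 with both, and over the whole list of 30 they had 8 and 15, 7 and 19, and 7 and 18. TP63, the master factor of basal squamous cells, had 72.3 RPKM with IL-13, 37.6 with vitamin D, 58.3 with both and 50.7 untreated. BCL11B and MAF followed the same order in the 2 single treatments, at 4.13, 1.49, 2.64 and 3.05 RPKM and at 14.4, 6.48, 7.37 and 11.5 RPKM. TRIM29, at 225, 183, 145 and 276 RPKM, and RARG, at 62.2, 74.3, 50.2 and 85.4 RPKM, were highest in untreated cells. Of 21 basal keratinocyte genes the authors' deposited tables had 6 higher and 10 lower with IL-13, 7 and 6 with vitamin D, and 5 and 8 with both. With vitamin D these counts lie near the shares of all genes of wide regions. Over all 25 the counts were 8 and 12, 9 and 7, and 5 and 10. CD44 had 143, 82.9, 134 and 96.2 RPKM and the cadherin gene CDH3 242, 200, 325 and 167 RPKM.

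Signalling genes of wide regions had the same leading directions as all genes of wide regions with IL-13 and with vitamin D. Of 12 genes of the EGF receptor group, 0 were higher and 10 lower with IL-13 in the authors' deposited tables, 8 and 2 with vitamin D, and 4 and 6 with both. Over the whole list the counts were 1 and 16 of 24, 10 and 5 of 24, and 7 and 11 of 25. The ligand gene AREG had 2.29 RPKM with IL-13, 6.59 with vitamin D, 5.65 with both and 2.53 untreated, and the phosphatase gene DUSP5 had 11.3, 26.1, 22.8 and 13.3 RPKM. The ligand gene HBEGF stood highest with both agents, at 5.64, 12.01, 21.9 and 8.05 RPKM. Of 12 AP-1 and immediate early genes, the authors' deposited tables had 2 higher and 6 lower with IL-13, 6 and 2 with vitamin D, and 5 and 4 with both, JUNB at 107, 191, 152 and 114 RPKM. Over the 21 tested genes of that list they were 2 and 12, 13 and 3, and 6 and 6.

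The remaining lists have 8, 4 and 3 genes in wide regions. Of 8 genes of the vitamin D list, 1 was higher and 5 lower with IL-13, 6 and 1 with vitamin D, and 6 and 2 with both in the authors' deposited tables. Over the whole list the counts were 8 and 12 of 27, 21 and 3 of 28, and 20 and 3 of 28. TXNRD1, thioredoxin reductase, had 36.7, 91.9, 109 and 36.6 RPKM. The 4 genes of the NF-kappaB and cytokine list had 0 higher and 3 lower with IL-13, 3 and 0 with vitamin D, and 3 and 0 with both in the authors' deposited tables, IL1B at 64.9, 171, 160 and 89.8 RPKM. The 22 tested genes of that list had 0 and 10, 5 and 13, and 3 and 12, so with vitamin D the 4 genes and the whole list differed in their leading direction. Of the 3 genes of the IL-13 list, IL4R had 33.1, 60.8, 52.1 and 38.3 RPKM, PTPN1 27.04, 48.5, 45.9 and 27.1 RPKM, and PKP2 17.2, 10.95, 16.95 and 9.11 RPKM. The whole IL-13 list had 12 higher and 4 lower of 24 with IL-13, 8 and 6 of 23 with vitamin D, and 15 and 4 of 24 with both in the authors' deposited tables.

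Genes whose wide region held STAT6 were higher with IL-13 in a larger share than other genes of wide regions. Of 273 such genes in the authors' deposited table, 27.1% were higher and 27.1% lower with IL-13, against 12.7% higher and 35% lower of 1423 genes of wide regions without STAT6. When IL-13 was added to vitamin D the shares were 28.5% and 29.6% of 270 genes, against 14.8% and 40.01% of 1412. Genes with STAT6 in a narrower region only were higher in 32.4% and lower in 12.2% of 942. Falls were therefore common in wide regions with and without STAT6, more than in narrower ones that held it. The genes with STAT6 differed in untreated level, with medians of 17.5 RPKM in wide and 4.97 RPKM in narrower regions. The part of level was not tested. For VDR in a wide region, 43.9% of 718 genes were higher and 15.6% lower with vitamin D in the authors' deposited table. The shares were 26.9% and 26.7% of 982 genes of wide regions without VDR. Genes with VDR in a narrower region only had 32.5% and 12.8% of 2620, and those with narrower regions without VDR 11.7% and 15.5% of 9879. With IL-13, 13.2% of 720 genes whose wide region held VDR were higher and 38.9% lower, against 16.4% and 29.9% of 976 without VDR. Factor regions and genes were matched through the authors' nearest gene, and no test was run on these shares.

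The widest regions that held both factors show how the factor regions lie within them. In TNS4 5 VDR regions of the vitamin D library lie between 2013 and 15291 bases into the gene, the strongest with a -log10 q of 71.0, and 1 STAT6 region of the IL-13 library at 10120 bases with a -log10 q of 2.74. Another wide region of TNS4, of 4130 bases, holds a stronger STAT6 region. That one is centred 17143 bases upstream of the start, with a -log10 q of 64.0. TNS4 had 58.8 RPKM with IL-13, 86.5 with vitamin D, 94.7 with both and 47.7 untreated, lowest in untreated cells. In IL4R 3 VDR regions lie 3560, 9273 and 13190 bases from the start, the last with a -log10 q of 38.1, and 1 STAT6 region at 4642 bases with one of 5.56. The region shared by KRT15 and KRT19 (13475 bases, chr17:39674117-39687592) has a VDR region 85 bases upstream of the listed start, with a -log10 q of 45.9. KRT15 had 109, 206, 134 and 153 RPKM and KRT19 1242, 2059, 1637 and 1581 RPKM, lowest with IL-13 and highest with vitamin D. The same order held for KRT80, at 49.3, 116, 59.3 and 86.9 RPKM, whose intergenic region 34025 bases away holds 3 STAT6 and 2 VDR regions, and for the metabolic enzyme gene UPP1, at 63.9, 86.0, 65.6 and 77.3 RPKM. In MTAP, AIG1 and EIF1 the strongest factor regions had -log10 q values of 176 (VDR), 98.3 (STAT6) and 59.1 (VDR), and their RNA stood at 8.62, 7.66, 8.91 and 8.06 RPKM, 19.1, 21.0, 22.9 and 17.5 RPKM, and 282, 300.3, 272 and 301 RPKM.

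Among the described genes, the factor regions found over the listed start were of VDR. Of 40 described genes with a wide region across the listed start, 7 had a VDR region of the vitamin D library overlapping the window from 250 bases before to 50 bases after it (ALCAM, GLTP, KRT15, NET1, SDC1, SYT8 and UPP1), and 0 had a STAT6 region of the IL-13 library there. These starts are those of the RNA tables. For UPP1 the peak lists also give a start further upstream, whose window a STAT6 region reaches. KRT15 and UPP1 were among the genes described because their wide region held both factors, and genes on chromosome 8 were left out of the 40. The VDR list is also the longer, with 9224 regions against 4802 for STAT6, and no share over all starts was taken. At GLTP, whose promoter is printed above with a VDR half-site, the region is 964 bases long with a -log10 q of 44.9. An untreated VDR region with a -log10 q of 4.95 lies within these 964 bases, outside the window. At ALCAM, whose printed window holds no half-site, VDR was listed with vitamin D and untreated, with -log10 q values of 10.8 and 4.95. In MAP3K14 the STAT6 region (1018 bases, -log10 q of 35.8) is centred 2041 bases upstream of the start, outside the printed window. The wide region of TNC holds no STAT6 or VDR region, although TNC had the largest rise with IL-13.

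**Figure D5:**
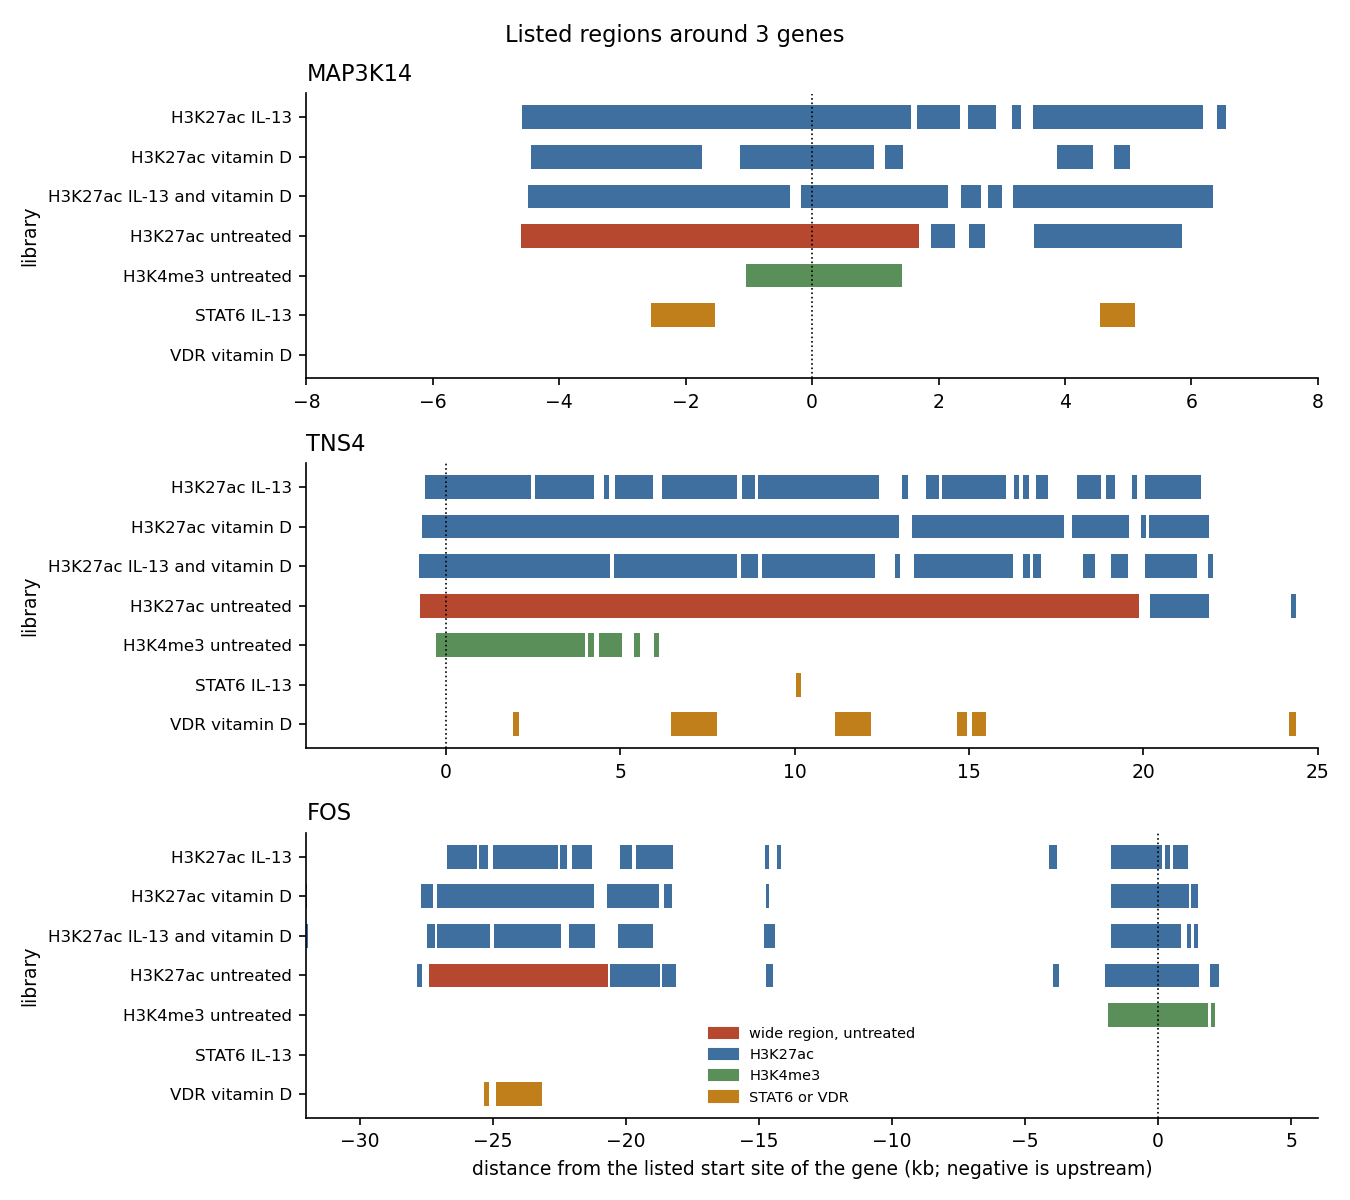
Regions listed in each library around MAP3K14, TNS4 and FOS, by distance from the gene's listed start (dotted line; negative is upstream), with the wide untreated H3K27ac region in red, other H3K27ac regions in blue, H3K4me3 in green and STAT6 or VDR in orange. MAP3K14 has STAT6 upstream inside its wide region, TNS4 has 5 VDR regions and 1 STAT6 region inside its 20617 bases, and the wide region of FOS lies 20687 bases upstream with VDR inside.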

How the data were processed

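RNA was sequenced in 3 samples for each of 4 groups, and ChIP-seq was done in 1 library per condition. The submitters' processing notes name the tools Bowtie, MACS2, SAMtools, STAR and Trim Galore, without versions, and hg19 as the build. Per the file headers the RNA tables hold 1 RPKM value per group, the authors' log2 fold changes and their p-values, plain and adjusted; which test gave them is not stated in any source used here. RPKM gives no read depth, so precision by depth is unknown. Genes listed with an adjusted p of 1 were counted as not tested. A table carries IL-13 in its name where its columns hold vitamin D alone, and it was used as IL-13 and vitamin D against vitamin D. Each peak list, per the file headers, gives the pileup (a signal), fold enrichment (a ratio), and -log10 p and -log10 q of the authors' peak caller; no source used here states the control library.

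Rows were merged by chromosome, start and end, mitochondrial rows were left out, and overlap meant at least 1 base. The background of a library is (pileup + 1) / fold enrichment - 1. Genes were matched by symbol, and 4 RNA rows with a repeated symbol were left out. The VDR library with vitamin D had whole pileups in 0.0955% of rows, so its heights were not compared. Interval code (Python 3.11.15, pandas 2.3.3, numpy 2.4.6) was checked on simulated intervals. Promoters are from RefSeq (GRCh38.p14). Named genes are those of the 20 widest regions, the 8 largest called rises and falls per comparison with untreated cells, those of the 10 widest regions with both factors, those of the 3 regions on each side of the threshold, and list members. The members, the 9 lists and the named rules were chosen with earlier results of these data known. Width, summit number and height in untreated cells belong to the rule, so they are given as descriptions. Some genes that these rules select are not reported here.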

Additional observations from a re-analysis of the deposited data

How the results depend on the processing

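Of 49 values under other settings 22 stayed within 1.5 times or their error and 27 moved. For shares the error was a 95% binomial interval over regions or over single bases, such as 80.06% to 80.11% for bases listed with IL-13. Regions and bases of 1 library are not replicates, and shares as near as 77.9% and 80.1% count as moved by this rule. The number of wide regions was 4496 at a minimum of 3000 bases, 1001 at 5000 bases and 4574 with regions at most 1000 bases apart joined. At 3000 and 5000 bases the share with STAT6 was 10.9% and 17.8%, that with VDR 31.2% and 47.1%, and with factor regions of a -log10 q of at least 20 alone these shares were 2.60% and 11.0%. The share of bases listed was 77.9% and 81.5% with IL-13, 83.9% and 87.3% with vitamin D and 80.4% and 83.6% with both at those 2 widths. With treated regions of a -log10 q of at least 20 it was 53.0%, 71.9% and 59.1%. Assigned genes called at 3000 and 5000 bases numbered 1431 and 491 with IL-13, 1756 and 545 with vitamin D and 1676 and 549 with both, since other widths assign other numbers of genes. With a 2-fold change also required they numbered 24, 45 and 66, and the leading direction turned with IL-13 (15 higher and 9 lower, against 255 and 572) and with both (36 and 30, against 400 and 545) but not with vitamin D (37 and 8, against 579 and 374). The filter at 10 RPKM in at least 1 group was added after the data were seen and left 635, 737 and 689 calls. The pseudocount does not enter the counts. No paired analysis was possible because the tables hold 1 value per group, and leaving out single samples could not be run for the same reason. Depth limits every H3K27ac comparison, since the untreated library is the deepest.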
